A study of Mus musculus with 3 samples.

Results

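The arginine, polyamine and kynurenine genes described here are *Arg1*, *Nos2*, *Ass1*, *Odc1*, *Sat1*, *Slc7a2*, *Kmo*, *Kynu*, *Ido1* and *Il4i1*, 10 of the 31053 genes in the count tables. They were chosen by function, with their UMI counts and shares of positive cells per cell class and library in view, so their levels by class and library are given as a description, without a test. All 10 genes were measured, and 9 of them had more than 3 UMIs (unique molecular identifiers, that is, distinct captured RNA molecules) in the cells kept.

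Arginine is taken up by cationic amino acid transporters, split by arginase into ornithine and urea, or oxidized by inducible nitric oxide synthase to nitric oxide and citrulline, from which argininosuccinate synthase starts the way back to arginine. Ornithine feeds the polyamines putrescine, spermidine and spermine, while indoleamine dioxygenase opens the degradation of tryptophan to kynurenine, which kynurenine monooxygenase and kynureninase process further toward NAD precursors. In tumors, arginase and nitric oxide synthase are well known from myeloid cells that restrain T cells.

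The study profiled live cells from the brains of mice with a syngeneic GBM, with and without niacin. Female C57BL/6 mice aged 6–8 weeks at purchase were implanted intracranially with a brain tumor-initiating cell line derived from NPcis mice, which carry *Nf1* and *Trp53* mutations. The 2 niacin libraries (niacin replicates 1 and 2) came from mice given niacin at 100 mg/kg intraperitoneally every day from day 7, and the 1 vehicle library (vehicle control, labelled replicate 2) from mice given saline. Tissue was taken 4 weeks after implantation from a 2 mm section around the injection site, cleared of myelin on Percoll, sorted for live cells and run on the Chromium 3′ platform. All animals of both groups thus carried the tumor, and no tumor-free library was used. The tumor was a single cell line, each library was a pool of several mice, and the labels state both 4 brain tissues per sample and 5 control and 10 niacin mice. With 1 vehicle library, the spread between vehicle libraries was not measured, so niacin was not tested against vehicle, and treatment cannot be told apart from library in any value below. Intervals given for a library are 95% intervals that cover counting error only.

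The vehicle control, niacin replicate 1 and niacin replicate 2 libraries held 2270, 2145 and 2532 barcodes with 8301228, 9373321 and 10359526 UMIs, and 1514, 1811 and 2203 barcodes passed the filters on detected genes and mitochondrial UMIs. The libraries shared cell barcodes, with 924 barcodes found in more than 1 library and 33.1% of all barcode copies affected. A shared barcode was typically deep in 1 library (median 11182 UMIs) and shallow in the next (median 649), and its copies resembled each other more than copies of other barcodes did (median cosine similarity of 0.533 against 0.287). Such a barcode was therefore kept only in a library holding at least 75% of its UMIs, which left 1264, 1412 and 1594 cells with a median of 3276, 5133 and 5230.5 UMIs and a median mitochondrial share of 5.17%, 2.69% and 3.44%. Cells were assigned to classes by the UMIs of lineage markers, and all 11 microglia markers and all 9 monocyte/macrophage markers were detected in at least 10% of the cells of their class. Microglia-like cells numbered 415, 850 and 986 in the vehicle control and niacin replicates 1 and 2, and monocyte/macrophage-like cells 230, 8 and 20. No cell was endothelial or neural/tumor by its markers, and 343, 155 and 154 cells stayed unassigned. The class is a call from a few markers rather than a deposited annotation, and 178 cells had under 75% of their lineage UMIs from the leading list.

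All gene positions are on GRCm38. *Arg1* lies on chromosome 10 (24915221 to 24927484, minus strand), *Nos2* on chromosome 11 (78920787 to 78960254, plus), *Ass1* on chromosome 2 (31470207 to 31520672, plus) and *Slc7a2* on chromosome 8 (40862396 to 40922308, plus). The polyamine genes *Odc1* and *Sat1* lie on chromosome 12 (17544794 to 17551505, plus) and chromosome X (155213132 to 155216449, minus). *Kmo* is on chromosome 1 (175620381 to 175662116, plus), *Kynu* on chromosome 2 (43555329 to 43682715, plus), *Ido1* on chromosome 8 (24584136 to 24597009, minus) and *Il4i1* on chromosome 7 (44816387 to 44840809, plus). *Il4i1* overlaps *Nup62* on its own strand, so UMIs placed in the shared stretch could not be assigned to either gene with certainty.

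RefSeq promoters (GRCm38.p6, 250 bases before to 50 after the gene start) matched 5 of the 10 genes, *Ass1*, *Il4i1*, *Kmo*, *Odc1* and *Sat1*. The promoters of *Ass1* and *Kmo* are shown because these were the genes that were higher in monocyte/macrophage-like than in microglia-like cells in each of the 3 libraries, and those of *Odc1* and *Il4i1* because these were lower there in each. Capitals mark matches to 7 motifs searched on both strands, of which E-box (CACGTG) and NF-kB (GGG, then 5 free bases and CC) letters are the ones found here, and the hypoxia response core ACGTG lies inside the E-box. The *Ass1* promoter is chr2:31470020-31470319 (plus strand), that of *Kmo* chr1:175631943-175632242 (plus) that of *Odc1* chr12:17544623-17544922 (plus) and that of *Il4i1* chr7:44836038-44836337 (plus). The RefSeq starts of *Kmo* and *Il4i1* lie inside the gene spans given above.
Ass1: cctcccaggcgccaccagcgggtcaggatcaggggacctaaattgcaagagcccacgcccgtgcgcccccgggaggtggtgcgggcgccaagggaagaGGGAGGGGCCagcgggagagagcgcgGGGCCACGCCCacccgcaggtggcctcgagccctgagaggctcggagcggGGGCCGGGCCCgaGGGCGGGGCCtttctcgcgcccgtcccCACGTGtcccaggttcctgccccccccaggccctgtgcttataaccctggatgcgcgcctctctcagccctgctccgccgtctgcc
Kmo: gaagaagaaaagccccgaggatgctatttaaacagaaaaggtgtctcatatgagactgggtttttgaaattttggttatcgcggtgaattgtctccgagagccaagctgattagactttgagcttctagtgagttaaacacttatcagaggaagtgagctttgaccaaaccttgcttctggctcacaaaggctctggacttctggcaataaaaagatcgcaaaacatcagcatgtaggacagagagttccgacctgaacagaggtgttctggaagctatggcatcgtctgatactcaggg
Odc1: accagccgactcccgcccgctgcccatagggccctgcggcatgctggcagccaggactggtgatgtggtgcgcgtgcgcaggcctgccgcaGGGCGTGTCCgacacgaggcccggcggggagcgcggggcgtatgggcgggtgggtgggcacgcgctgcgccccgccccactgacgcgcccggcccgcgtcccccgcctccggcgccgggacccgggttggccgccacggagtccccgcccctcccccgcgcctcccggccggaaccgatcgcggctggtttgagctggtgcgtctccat
Il4i1: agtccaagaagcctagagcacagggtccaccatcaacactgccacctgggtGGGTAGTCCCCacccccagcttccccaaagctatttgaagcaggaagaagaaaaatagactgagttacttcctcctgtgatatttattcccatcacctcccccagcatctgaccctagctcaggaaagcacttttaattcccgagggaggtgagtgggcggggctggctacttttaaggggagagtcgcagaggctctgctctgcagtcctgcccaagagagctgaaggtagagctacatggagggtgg

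The *Ass1* promoter held the E-box 36 bases before the start and 6 NF-kB matches on the 2 strands, some of them overlapping, that of *Odc1* held 1 NF-kB match, that of *Il4i1* 3 overlapping ones, and that of *Kmo* held none of the letters searched. E-box letters occur in 7.24% and NF-kB letters in 50.4% of the 27025 mouse promoters of the same length. The 5 other motifs (STAT, STAT6, C/EBP, the hypoxia core and the interferon-stimulated element) occur in 3.49% to 19.7% of promoters. A match describes the letters of the window and is not a binding site.

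The genes differed in where their UMIs were found. *Sat1*, spermidine/spermine acetyltransferase, had 13532 UMIs in 2822 of the kept cells, *Odc1*, ornithine decarboxylase, 2096 in 1173 cells, and *Arg1*, arginase 1, 1673 in 97 cells. *Ass1* had 796 UMIs in 316 cells, *Kmo* 286 in 108, *Slc7a2* 243 in 55, *Il4i1* 177 in 127, *Kynu* 173 in 121 and *Nos2* 65 in 21. *Ido1*, indoleamine dioxygenase 1, had 3 UMIs in all, 1 each in a dendritic cell-like and a B cell-like cell of the vehicle control and 1 in a choroid plexus-like cell of niacin replicate 2, so it could not be compared at this depth. Of the *Arg1* UMIs, 99.3% were in the vehicle control library, as were 96.9% of those of *Nos2*, 100.0% of those of *Slc7a2*, 80.8% of those of *Kmo*, 71.9% of those of *Ass1* and 70.5% of those of *Kynu*. For *Odc1*, *Sat1* and *Il4i1* the share was 32.5%, 25.1% and 31.1%.

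**Figure D1:**
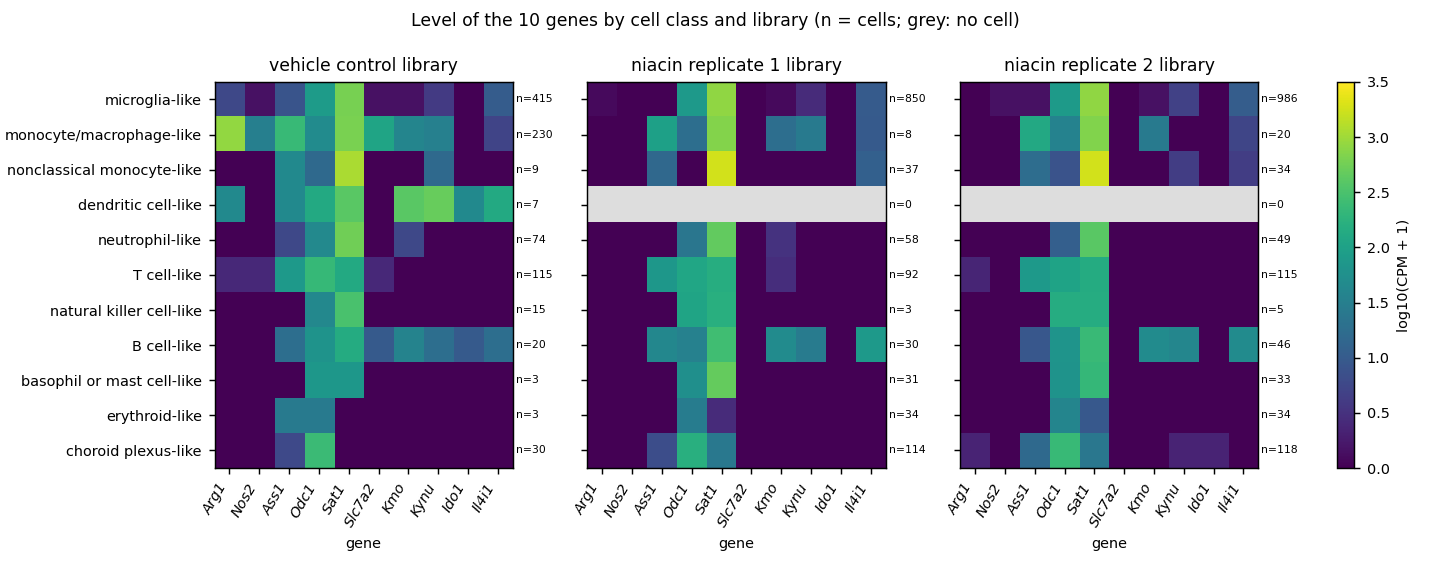
Level of the 10 genes as log10 of CPM plus 1 (color) for each of 11 cell classes (vertical, with the number of cells) in each of the 3 libraries (panels). *Sat1* and *Odc1* were found in most classes of every library, whereas *Arg1*, *Slc7a2* and *Nos2* stood out in 1 class of the vehicle control.

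Arginase 1 was a monocyte/macrophage transcript of the vehicle control library. *Arg1* had 1615 UMIs in its 230 monocyte/macrophage-like cells, a level of 843.6 CPM, the UMIs of the gene per 1000000 UMIs of the class (95% interval 803 to 886), and 0 UMIs in the 8 and 20 such cells of the niacin libraries. At the mean level of the vehicle control, 97.1 and 192 UMIs would have fallen in those niacin cells. Against a limit of 3 UMIs for a count of 0, the vehicle control was 32.4-fold higher than niacin replicate 1 and 63.9-fold higher than niacin replicate 2. These folds cover counting error and are no lower bounds over cells. In the vehicle control 67 of the 230 cells had an *Arg1* UMI, and the niacin libraries gave 8 and 20 cells. Microglia-like cells had 11 *Arg1* UMIs in the vehicle control (4.67 CPM), 1 in niacin replicate 1 and 0 in niacin replicate 2, and neutrophil-like, B cell-like and nonclassical monocyte-like cells had 0 in every library.

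The niacin value rests on few cells and on how shared barcodes were treated. With all shared barcodes kept, the niacin libraries had 103 and 100 monocyte/macrophage-like cells with 62 and 37 *Arg1* UMIs (330 and 127 CPM), and the vehicle control 836 CPM. Of the copies left out of those libraries in this class, 91 of 95 and 75 of 80 were barcodes that the vehicle control also held, at a median of 693 and 698 UMIs. With every shared barcode left out, the vehicle control had 369 *Arg1* UMIs in 150 cells (566 CPM) and the niacin libraries 0 in 2 and 8 cells. The difference was 5.79-fold against the limit for a count of 0, which covers counting error and not the spread between cells. In these sorted cells, fewer *Arg1*-positive cells and less *Arg1* RNA per cell cannot be told apart from class sums alone.

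*Slc7a2*, a cationic amino acid transporter that carries arginine, was found in the same class and library. It had 213 UMIs in the vehicle control monocyte/macrophage-like cells (111 CPM, 96.8 to 127) and 0 in those of the niacin libraries. Against the limits for a count of 0, the vehicle control was 4.27- and 8.43-fold higher than niacin replicates 1 and 2. These folds cover counting error and are no lower bounds over cells. In the vehicle control 44 of the 230 cells had an *Slc7a2* UMI, and the niacin libraries gave 8 and 20 cells. *Nos2*, inducible nitric oxide synthase, had 60 UMIs in the vehicle control cells of this class (31.3 CPM, 23.9 to 40.3) and 0 in those of the niacin libraries. The limits that a count of 0 allows there were 26.1 and 13.2 CPM, the first of them inside the vehicle control interval, and 23 of the 60 UMIs came from 1 cell, so no fold is given for *Nos2*. Outside this class *Slc7a2* and *Nos2* had at most 2 UMIs in any named class of any library. With all shared barcodes kept, the niacin monocyte/macrophage-like cells had 5 and 4 *Slc7a2* UMIs and 2 and 1 *Nos2* UMIs.

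The *Arg1* UMIs of the vehicle control came from a minority of its monocyte/macrophage-like cells. At least 1 UMI was seen in 67 of 230 cells (29.1%, exact binomial interval 23.3% to 35.5%) and at least 5 in 38 cells. The cell with the most had 211 UMIs, and the 10 cells with the most held 1082 of the total. After each cell of at least 2000 UMIs was thinned to 2000, 41 of 177 cells were positive (23.2%), against 7 of 281 microglia-like cells (2.49%) and 0 of 89 T cell-like cells, which should lack the transcript and had a median of 5616 UMIs before thinning against 8112.5 in the monocyte/macrophage-like cells. *Slc7a2* was likewise concentrated, with 60.6% of its UMIs in 10 of its 44 positive cells. Of the 60 *Nos2* UMIs, 23 came from 1 cell, which also had 66 *Arg1* UMIs. *Ass1* was spread more widely, with 105 positive cells and 35.0% of its UMIs in the 10 highest.

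**Figure D2:**
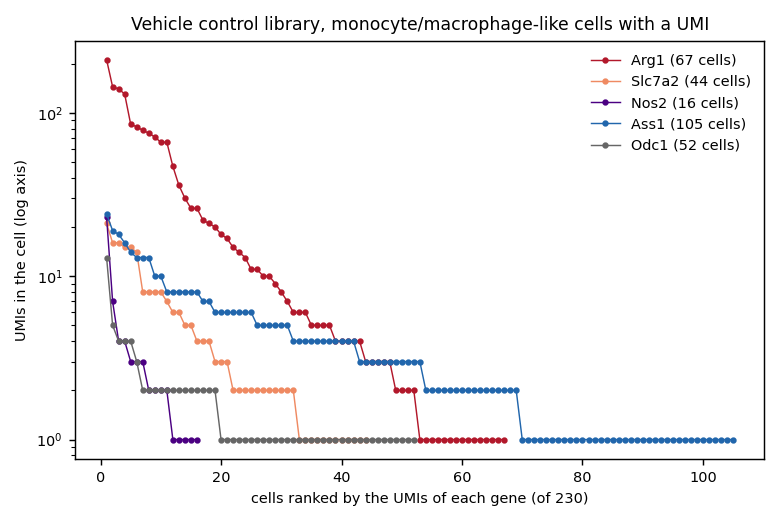
UMIs per cell (vertical, log axis) in the vehicle control monocyte/macrophage-like cells that had at least 1 UMI, ranked by each gene separately (horizontal), for *Arg1*, *Slc7a2*, *Nos2*, *Ass1* and *Odc1*. The *Arg1* curve starts at 211 UMIs and runs to 67 cells, while *Ass1* starts at 24 and runs to 105 cells.

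Among these 230 cells, the share of UMIs found in *Arg1*-positive cells differed between the genes. The 67 *Arg1*-positive cells held 37.0% of all UMIs of the class, since they were deeper (median 11404 UMIs against 3597). They held 78.3% of the *Nos2* UMIs (11 of 16 positive cells), 59.8% of the *Odc1* UMIs and 54.0% of the *Slc7a2* UMIs. They held 32.9% of the *Sat1*, 32.6% of the *Ass1*, 15.3% of the *Kmo* and 14.3% of the *Kynu* UMIs, each under 37.0%. Of the 92 *Odc1* UMIs, 13 came from 1 cell of 42542 UMIs, which also had 140 *Arg1* UMIs. These shares come from 1 library and were not tested.

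Splitting the cells by an *Arg1* UMI after thinning to 2000 UMIs kept depth from deciding the arm, with 41 cells in the *Arg1* arm and 136 in the other. *Nos2* had 95.7 CPM with *Arg1* and 8.85 CPM without, *Odc1* 85.3 and 36.9 CPM, and *Slc7a2* 158 and 95.9 CPM. *Kmo* had 12.5 CPM with *Arg1* and 43.5 CPM without, *Kynu* 16.6 and 37.6 CPM, and *Ass1* 129 and 266 CPM. After thinning, 10 of the 41 cells with *Arg1* (24.4%, exact 95% interval 12.4 to 40.3%) and 34 of the 136 without (18.0 to 33.1%) had an *Ass1* UMI, intervals that overlap, so no order is read from its CPM. The intervals of these shares also overlapped for *Odc1*, *Slc7a2*, *Kmo* and *Kynu*, so no order is read from their CPM either. For *Nos2* the shares were 6 of 41 (5.57 to 29.2%) and 0 of 136 (0 to 2.68%). *Sat1* had 545 and 648 CPM. A second random draw of the thinning (43 and 134 cells) kept the direction of the CPM for each of these 7 genes. *Odc1* was at 82.2 and 37.0 CPM there, *Kmo* at 11.7 and 44.5 CPM and *Ass1* at 178 and 250 CPM. In that draw 5 of 43 and 1 of 134 cells had a *Nos2* UMI. The exact intervals of these shares overlap slightly, so no order is read from the CPM of *Nos2* either. The 2 arms also differed in their median mitochondrial share, 1.99% with *Arg1* and 3.53% without, and in median depth, 12535 and 10576 UMIs, whose part in these values was not tested. As *Arg1* was found in 1 library, the split has no replicate and was not tested, and the *Nos2* value in the *Arg1* arm includes the cell with 23 UMIs.

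**Figure D3:**
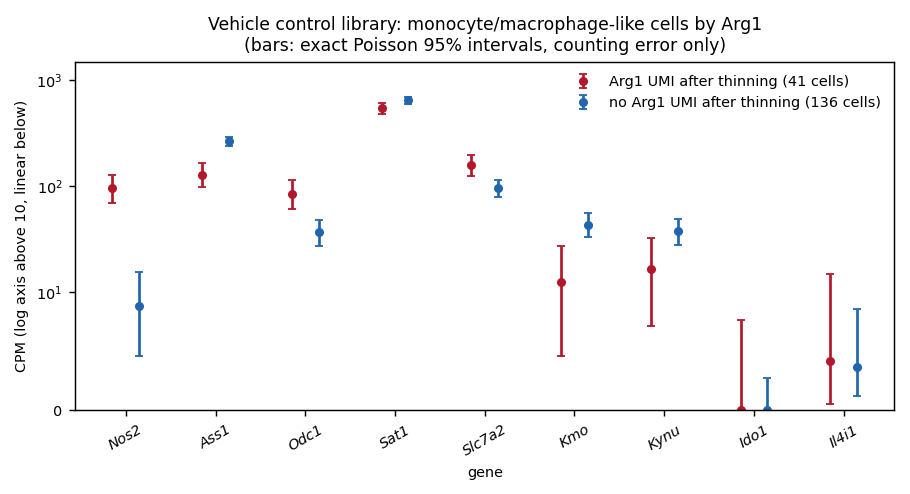
CPM (vertical, log axis above 10 and linear below) of the other 9 genes in vehicle control monocyte/macrophage-like cells with (red, 41 cells) and without (blue, 136 cells) an *Arg1* UMI after thinning, with exact Poisson 95% intervals. *Nos2*, *Slc7a2* and *Odc1* had the higher CPM with *Arg1*, and *Kmo*, *Kynu* and *Ass1* without it. The shares of cells with a UMI after thinning had overlapping intervals for each of these genes but *Nos2*, whose intervals overlapped in a second draw.

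Over the 23 pairs of class and library with at least 20 cells, the 5 genes of 7509 whose log2(CPM + 10) followed that of *Arg1* most closely were *Prm1*, *Mmp12*, *Htr7*, *Sectm1a* and *Nos2*, with Pearson correlations of 0.998, 0.996, 0.996, 0.996 and 0.995. *Slc7a2* ranked 10 at 0.96, *Ass1* 156 at 0.53, *Kynu* 229 at 0.49, *Kmo* 500 at 0.37, *Sat1* 2906 at 0.16 and *Odc1* 6448 at 0.00. The pairs share libraries, and each of the leading values turns on 1 pair, the monocyte/macrophage-like cells of the vehicle control. There *Prm1* had 30 UMIs, *Mmp12* 86, *Htr7* 91 and *Sectm1a* 25. A gene could enter the ranking with at least 20 UMIs in that pair alone, where *Arg1* was high. A high correlation of such a gene was thus largely set in advance, and the ranks are a description and no measure of likeness.

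*Ass1*, argininosuccinate synthase, was highest in the monocyte/macrophage-like cells of each library among the 7 classes compared. Its level there was 224 CPM (203 to 246) in the vehicle control, 95.6 (47.7 to 171) in niacin replicate 1 and 128 (85.4 to 183) in niacin replicate 2. T cell-like cells followed with 76.5, 69.6 and 75.7 CPM, and microglia-like cells had 7.22, 0 and 0.434 CPM. The 3 monocyte/macrophage-like values all lay above the T cell-like values, and those above all values of the 5 other classes compared in every library (microglia, nonclassical monocyte, B cell, neutrophil and choroid plexus). Thinned shares of positive cells were 24.9% of 177 cells in the vehicle control monocyte/macrophage-like class and 10.1%, 8.45% and 14.0% of the T cell-like cells, against 0 of 37 neutrophil-like cells of the vehicle control, whose median before thinning was 2082.5 UMIs.

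The difference of *Ass1* between monocyte/macrophage-like and microglia-like cells was 3.63 ± 0.20 on the log2(CPM + 10) scale (SD, n = 3 libraries). *Kmo* differed by 1.80 ± 0.39, also higher in all 3 libraries, and *Odc1* by -1.11 ± 0.50, lower in all 3. The size for *Ass1* fell to 1.16 with all shared barcodes left out, where the 2 and 8 niacin cells of the class had 0 *Ass1* UMIs, and that for *Kmo* to 0.45 when a class needed at least 90% of the lineage UMIs. *Arg1* (1.94 ± 3.39), *Slc7a2* (1.18 ± 2.04), *Nos2* (0.64 ± 1.17) and *Kynu* (0.97 ± 1.23) had spreads larger than their means, since the vehicle control alone carried the first 3. *Sat1* (-0.15 ± 0.16) was higher in 1 of 3 libraries, and *Il4i1* (-0.31 ± 0.24) was lower in all 3, at -0.45, -0.03 and -0.46. These values belong to the class levels that were in view when the genes were chosen, and 33.4% of all 10030 genes tested differed between the classes by the edgeR quasi-likelihood test, so the counts of libraries are read as a description. Of the 10 genes, 5 passed the filter on low counts for that test. Markers of the other class were low in each, with the microglia list at 412, 243 and 268 CPM in monocyte/macrophage-like cells against 18324 to 23643 CPM in microglia-like cells, and the monocyte/macrophage list at 170, 53.2 and 57.1 CPM in microglia-like cells.

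**Figure D4:**
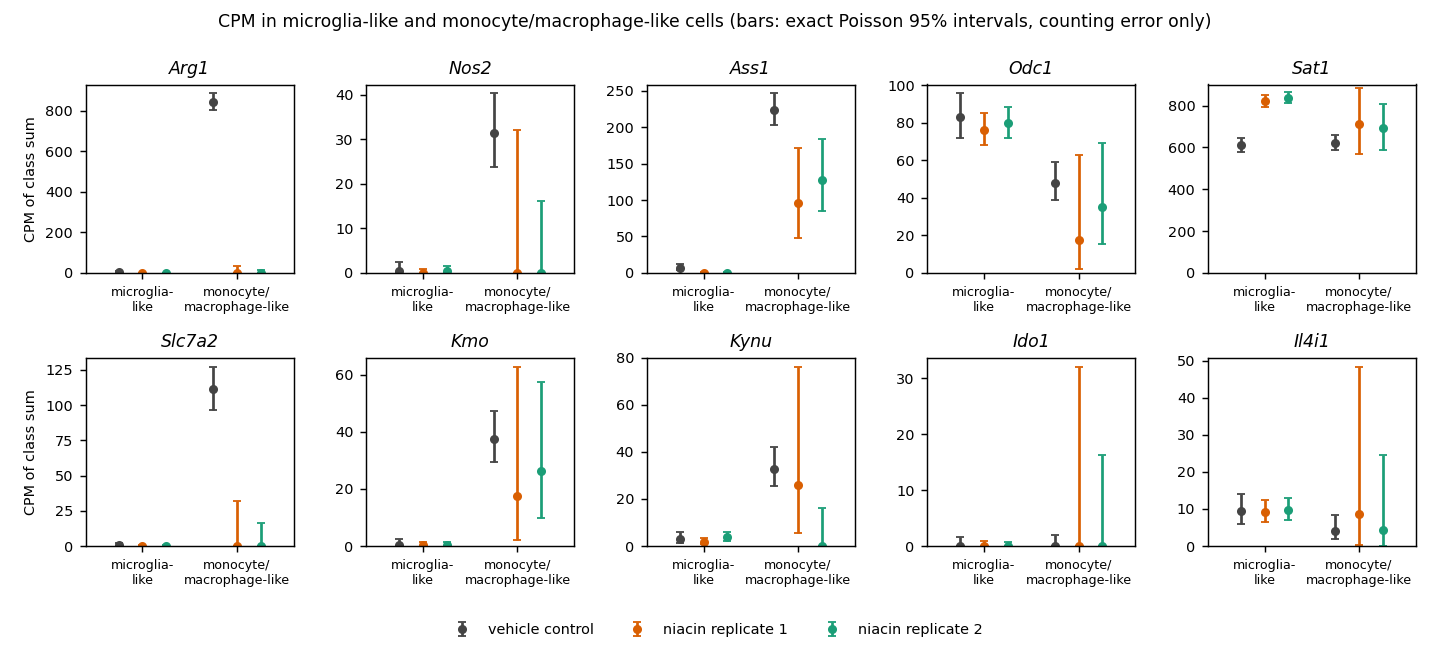
CPM of class sums (vertical, from 0, a scale for each gene) of the 10 genes in microglia-like and monocyte/macrophage-like cells of the vehicle control (grey), niacin replicate 1 (orange) and niacin replicate 2 (green), with exact Poisson 95% intervals. The niacin intervals in monocyte/macrophage-like cells are wide (8 and 20 cells), *Ass1* was higher there than in microglia-like cells in every library, and *Arg1* was high in 1 library.

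The polyamine genes were found across the classes. *Odc1*, the entry enzyme of polyamine synthesis, reached its highest level, 244, 160 and 226 CPM, in the choroid plexus-like cells of the vehicle control and niacin replicates 1 and 2, followed by T cell-like cells at 217, 117 and 106 CPM, whose values overlapped those of the choroid plexus. Microglia-like cells had 83.2, 76.2 and 79.6 CPM, a narrow range below all T cell-like values. B cell-like (61.8, 33.9 and 63.0), monocyte/macrophage-like (48.1, 17.4 and 35.2) and neutrophil-like cells (43.2, 22.5 and 10.6) overlapped each other below that.

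In T cell-like cells *Odc1* was lower in both niacin libraries than in the vehicle control, at log2 ratios of -0.90 (-1.33 to -0.47) and -1.03 (-1.42 to -0.64). Thinned shares of positive T cell-like cells were 24.7% (22 of 89), 14.1% (10 of 71) and 17.0% (17 of 100). The cycling list of 12 genes was at 164, 52.7 and 38.5 summed CPM in the same cells, with 11, 10 and 8 of its genes detected, and its part in the *Odc1* values was not tested. With all shared barcodes left out the *Odc1* levels were 218, 114 and 120 CPM. In microglia-like cells the log2 ratios were -0.13 (-0.38 to 0.13) and -0.06 (-0.31 to 0.19), both intervals including 0.

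*Sat1*, which acetylates spermidine and spermine for export or breakdown, had the most UMIs of the 10 genes and was highest in nonclassical monocyte-like cells, at 1134, 1837 and 1823 CPM in 9, 37 and 34 cells. Microglia-like cells had 610, 822 and 838 CPM and monocyte/macrophage-like cells 622, 713 and 691 CPM, with overlapping ranges. Neutrophil-like cells had 547, 452 and 400 CPM, B cell-like cells 141, 265 and 236, T cell-like cells 132, 152 and 140, and choroid plexus-like cells 0, 24.2 and 23.4. The order of nonclassical monocyte-like, microglia-like and monocyte/macrophage-like, neutrophil-like, B and T cell-like and then choroid plexus-like cells thus held without overlap between those steps. Choroid plexus-like cells had the highest mean *Odc1* level (209.9 ± 44.5 CPM, SD, n = 3 libraries) and the lowest mean *Sat1* level (15.9 ± 13.8 CPM) of these 7 classes.

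*Sat1* was higher in the microglia-like cells of both niacin libraries than in those of the vehicle control, by log2 ratios of 0.43 (0.34 to 0.52) and 0.46 (0.37 to 0.54). Thinned shares of positive cells were 63.3% (178 of 281), 72.2% (480 of 665) and 73.2% (478 of 653). Nonclassical monocyte-like cells lay on the same side (0.70, 0.35 to 1.04, and 0.69, 0.34 to 1.03), whereas in neutrophil-like cells *Sat1* was lower in both niacin libraries (-0.27, -0.60 to 0.06, and -0.45, -0.79 to -0.12). In the microglia-like cells the median mitochondrial share was 3.23%, 1.85% and 2.44%, the activation list of 8 genes was at 568, 87.4 and 253 summed CPM and the cycling list at 204, 26.1 and 36.9, and the part of these in the *Sat1* values was not tested. Without any shared barcode, *Sat1* was at 634, 857 and 845 CPM in microglia-like cells.

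The kynurenine genes were found in monocyte/macrophage-like, B cell-like and dendritic cell-like cells. *Kmo*, kynurenine 3-monooxygenase, was at 37.6 CPM (29.4 to 47.4), 17.4 (2.11 to 62.8) and 26.4 (9.69 to 57.4) in monocyte/macrophage-like cells and at 35.3, 47.5 and 47.2 CPM in B cell-like cells, from 4, 7 and 12 UMIs. Both classes overlapped each other and lay above the 5 other classes compared, and microglia-like cells had 0.425, 0.240 and 0.434 CPM. *Kynu*, kynureninase, had 32.9, 26.1 and 0 CPM in monocyte/macrophage-like cells, 17.6, 27.1 and 39.4 CPM in B cell-like cells and 2.97, 1.68 and 3.69 CPM in microglia-like cells. The 7 dendritic cell-like cells, all of the vehicle control, had 9 *Kmo* UMIs (401.5 CPM, 184 to 762) and 11 *Kynu* UMIs (490.8 CPM, 245 to 878), the highest CPM of either gene in any class, from 2 and 4 positive cells. That class had 6 of its 8 markers detected, and no cell of the niacin libraries was assigned to it.

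*Il4i1*, a secreted amino acid oxidase that acts on phenylalanine and tryptophan, was highest in B cell-like cells among the 7 classes compared in every library, at 17.6, 74.6 and 47.2 CPM from 2, 11 and 12 UMIs. The 7 dendritic cell-like cells of the vehicle control had 3 *Il4i1* UMIs (133.8 CPM, 27.6 to 391). Microglia-like cells had 9.34, 9.10 and 9.76 CPM from 22, 38 and 45 UMIs, a range that did not overlap with that of the B cell-like cells or with the 4.18, 8.69 and 4.40 CPM of monocyte/macrophage-like cells. T cell-like, choroid plexus-like and neutrophil-like cells had 0 UMIs of *Il4i1* in every library. The monocyte/macrophage-like values of the niacin libraries rest on 1 UMI each, and the B cell-like value of the vehicle control on 2. At such counts these gaps lie within counting error, so the order there is not settled.

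Comparisons within the microglia-like class were not used to choose the genes and could be tested over the 3 libraries. The activation and cycling lists that set their arms were chosen with earlier results of these data known. Microglia-like cells with at least 3 UMIs of the activation list after thinning (20, 7 and 9 cells) were set against those with none (205, 622 and 592). Of 8174 genes tested, 8.76% passed an adjusted p of 0.05, with 4.54% of all tested genes higher. Of the 10 genes *Sat1* and *Odc1* passed the filter on low counts and neither passed the test, with log2 fold changes of 0.03 (SE 0.25, adjusted p = 0.969) and 0.52 (SE 0.36, adjusted p = 0.491) by the edgeR quasi-likelihood test with Benjamini-Hochberg adjustment. The activated cells of the vehicle control and niacin replicates 1 and 2 had *Sat1* at 463, 1307 and 652 CPM. The others had 622, 810 and 830 CPM, so the libraries lay on different sides.

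*Il4i1* was filtered out of that test, with 7, 5 and 1 UMIs in the activated cells (29.2, 94.7 and 11.2 CPM) and 10, 26 and 33 in the others (6.74, 7.18 and 8.87 CPM), so the activated arm was the higher one in all 3 libraries. Its call depended on the random draw of the thinning. In a second draw (21, 4 and 10 activated cells) *Il4i1* entered the test and had a log2 fold change of 2.85 (SE 0.72, adjusted p = 0.00276 by the edgeR quasi-likelihood test with Benjamini-Hochberg adjustment), where 6.83% of 8111 genes were called (3.45% higher). With 1 UMI of the list as the limit (76, 43 and 61 cells), a less extreme split in which 5.44% of 8781 genes were called, it was at 1.15 (SE 0.46, adjusted p = 0.194 by the same test), with 12.8, 25.8 and 12.4 CPM in the activated cells. A gene that enters a test through the arm in which it is high had to differ there, so the second draw is given as a value and not as support.

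Microglia-like cells with at least 3 UMIs of the cycling list (8, 1 and 3 cells) were set against those with none (260, 646 and 626). Of 8363 genes tested, 1.87% were called. *Sat1* (-0.02, SE 0.59, adjusted p = 0.996) and *Odc1* (-0.54, SE 0.73, adjusted p = 0.847) did not pass the edgeR quasi-likelihood test with Benjamini-Hochberg adjustment, with 12 cycling cells in all. The cycling cells of the vehicle control and niacin replicates 1 and 2 had *Sat1* at 517, 332 and 3540 CPM. The others had 620, 826 and 839 CPM, so the libraries lay on different sides. The 332 CPM rest on 3 UMIs in 1 cell. The same comparison in monocyte/macrophage-like cells was not run, because it asked for at least 10 cells per arm in each library and the cycling arm held 1, 0 and 4 cells in the vehicle control and niacin replicates 1 and 2.

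The other 53 genes of the 3 pathways, listed by function and not by how they moved, place the 10 genes in context. In monocyte/macrophage-like against microglia-like cells 33 of them were tested, 5 were higher and 4 lower, or 9 of 33 where 33.4% of all genes were called (17.1% higher and 16.3% lower). Of the 13 arginine and nitric oxide genes tested 1 was higher and 3 lower (median log2 fold change -0.31), of the 14 polyamine genes 2 were higher and 1 lower (median 0.03), and of the 6 tryptophan and kynurenine genes 2 were higher and none lower (median 1.01), beside a median of -0.13 over all genes tested. DESeq2 also called 9, with a median over all genes of -0.31. Of the edgeR calls, *Ahr*, *Ddah2* and *Slc18b1* passed the low-count filter through the arm in which they were high. These are given as values and not as support.

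On the kynurenine side the receptors were the genes that rose. *Ahr*, the aryl hydrocarbon receptor that binds kynurenine, was at 100.3, 78.2 and 57.2 CPM in monocyte/macrophage-like cells of the vehicle control and niacin replicates 1 and 2 and at 2.12, 0.240 and 0.868 in microglia-like cells, a log2 fold change of 6.49 (SE 0.51, adjusted p = 9.95e-09 by the edgeR quasi-likelihood test with Benjamini-Hochberg adjustment). *Gpr35*, a receptor that responds to kynurenic acid, was at 207, 95.6 and 74.8 against 28.9, 14.1 and 12.2 CPM (3.05, SE 0.31, adjusted p = 2.80e-07 by edgeR). All values of the one class lay above all values of the other for both genes. *Ahr* passed the low-count filter through the arm in which it was high, so its p-value is given as a value and not as support.

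On the arginine side *Gch1*, GTP cyclohydrolase, which makes the cofactor of nitric oxide synthase, rose to 87.8, 52.2 and 13.2 CPM against 9.34, 5.27 and 6.51 (3.03, SE 0.49, adjusted p = 7.22e-05 by edgeR). Its 13.2 CPM in niacin replicate 2 is the level that 3 UMIs make in those cells. *Ddah2*, which breaks down methylated arginines that inhibit nitric oxide synthase, fell to 0.522, 0 and 4.40 CPM against 29.7, 46.9 and 53.8 (-4.77, SE 0.70, adjusted p = 2.83e-05 by edgeR). Its niacin values in monocyte/macrophage-like cells lie under the 26.1 and 13.2 CPM that 3 UMIs make there. *Ddah2* passed the low-count filter through the microglia-like arm, in which it was high. Its call is thus given as a value and not as support. *Slc7a7*, an arginine exporter subunit, was lower by -1.17 (SE 0.32, adjusted p = 0.00812 by edgeR). *Slc3a2*, the heavy chain it pairs with, was the ninth call and lower by -0.84 (SE 0.31, adjusted p = 0.0426 by edgeR), and is named outside the limit of 8 genes after its value was seen. Leaving out niacin replicate 2 ended the calls of *Slc7a7* (-0.95, adjusted p = 0.0821 by edgeR) and *Slc3a2* (-0.69, adjusted p = 0.319 by edgeR), and leaving out niacin replicate 1 also ended that of *Slc3a2* (-0.74, adjusted p = 0.244 by edgeR). Both calls also ended when a class needed at least 90% of the lineage UMIs (adjusted p = 0.0527 and 0.144 by edgeR) and with all shared barcodes left out (adjusted p = 0.533 and 0.696 by edgeR).

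On the polyamine side *Eif5a*, the translation factor modified with spermidine, was at 318, 461 and 541 CPM against 166, 183.0 and 189 (1.54, SE 0.29, adjusted p = 0.000375 by edgeR). *Oaz1*, the antizyme that leads ornithine decarboxylase to degradation, was at 557, 947 and 954 CPM against 377, 410.1 and 429 (1.25, SE 0.30, adjusted p = 0.00276 by edgeR). *Slc18b1*, a vesicular polyamine transporter, had 1 UMI in all monocyte/macrophage-like cells and 10.8 to 12.7 CPM in microglia-like cells (-4.38, SE 1.12, adjusted p = 0.00486 by edgeR). *Slc18b1* too passed the low-count filter through the arm in which it was high, so its call is not support. With all shared barcodes left out the calls for *Eif5a* (-0.020), *Oaz1* (-0.56) and *Slc18b1* (-2.77, adjusted p = 0.0667 by edgeR) ended as well, *Ahr* and *Gch1* no longer passed the filter on low counts, and *Gpr35* and *Ddah2* were the 2 calls that remained. That of *Oaz1* also ended without niacin replicate 1 (1.15, adjusted p = 0.0736 by edgeR) or 2 (1.16, adjusted p = 0.0777 by edgeR), and that of *Slc18b1* without the vehicle control (-7.69, adjusted p = 0.134 by edgeR).

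**Figure D5:**
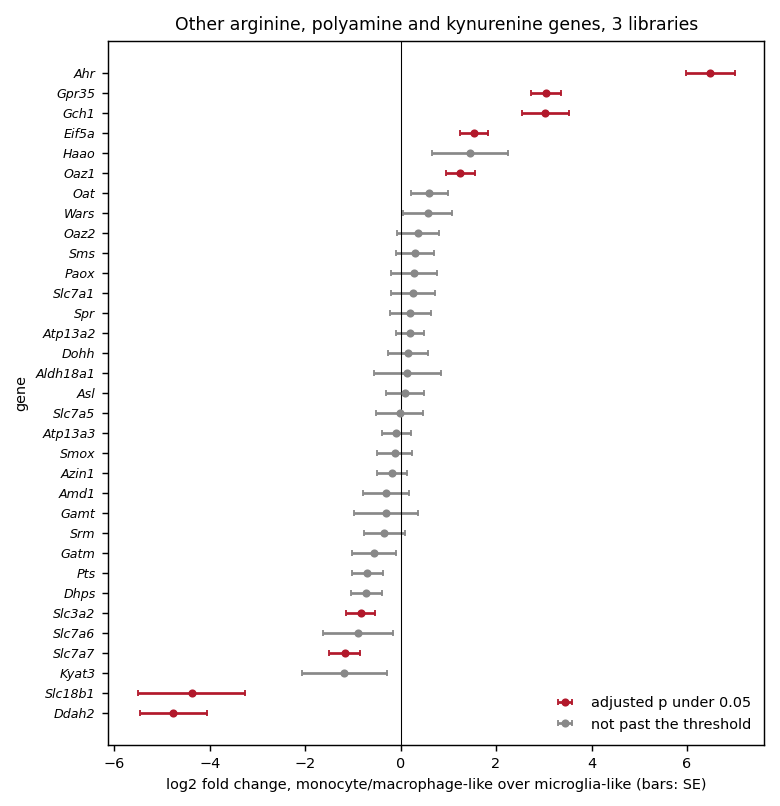
Log2 fold change (horizontal, bars are SE) of the 33 other arginine, polyamine and kynurenine genes tested, in monocyte/macrophage-like over microglia-like cells of 3 libraries. Red points passed an adjusted p of 0.05, with *Ahr*, *Gpr35*, *Gch1*, *Eif5a* and *Oaz1* higher and *Ddah2*, *Slc18b1*, *Slc7a7* and *Slc3a2* lower. *Ahr*, *Ddah2* and *Slc18b1* passed the low-count filter through the arm in which they were high.

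Within microglia-like cells, 2 of 27 other genes rose with the activation list where 4.54% of all genes tested did, a share that does not set these genes apart. They were *Gatm*, which uses arginine to make a creatine precursor (1.05, SE 0.28, adjusted p = 0.00371), and *Eif5a* (0.78, SE 0.27, adjusted p = 0.0404), by the edgeR quasi-likelihood test with Benjamini-Hochberg adjustment. DESeq2 called neither, and the second draw of the thinning called *Gatm* (1.29) and not *Eif5a* (0.77, adjusted p = 0.153 by edgeR). Without the vehicle control or niacin replicate 2 neither was called, with *Gatm* at 0.90 and 0.87 (adjusted p = 0.374 and 0.224 by edgeR) and *Eif5a* at 0.45 and 0.61 (adjusted p = 0.847 and 0.519 by edgeR). With the cycling list, edgeR called 0 of 29 other genes, with 3 at an unadjusted p under 0.05, and DESeq2 0, with 2 at that limit.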

How the data were processed

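The authors made the deposited UMI counts from Chromium 3′ v3.1 libraries with Cell Ranger 3.1 and STAR on mm10, as the labels state, and the files hold them per gene and barcode without normalization. Depth ran from 8301228 to 10359526 UMIs per library. Python 3.11.15 (numpy 2.4.6, scipy 1.17.1, pandas 2.3.3, matplotlib 3.10.9) was used from there. Barcodes with at least 200 genes and at most 20% mitochondrial UMIs were kept, and no doublet caller was run. A cell took the class of the lineage list with at least 3 UMIs from at least 2 genes and at least 67% of all lineage UMIs, and was otherwise unassigned. Levels are CPM of class sums with exact Poisson intervals, and shares have exact binomial intervals, at a level of 95% and for counting error only. A count of 0 was given a floor of 3 counts.

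Sums per library and cell group were tested with edgeR 4.0.16 in R 4.3.3 (quasi-likelihood test, TMM, filterByExpr, a term for the library), and p-values were adjusted by Benjamini-Hochberg over every gene that passed the filter, with DESeq2 1.42.0 as an alternative. Standard errors came from the fold change and the F statistic. The tests were tried on simulated counts. Cells of 1 pool are not replicates, and no label says that libraries are independent beyond being separate pools. The test shares its estimate of spread over genes, so a p-value does not measure 1 gene's own spread between these 3 libraries. The library block is the sample itself, which holds both arms. The members, lists and classes were chosen with earlier results of these data known. The text names all 10 genes, up to 8 other pathway genes per comparison with an adjusted p under 0.05 by absolute fold change, and the 5 genes most like *Arg1*. Of the alternatives, 69 were set at the outset and 5 (a limit of 1 UMI and a second random draw) were added after seeing the data.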

Additional observations from a re-analysis of the deposited data

Results flagged for a closer look

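*Sat1* was higher in monocyte/macrophage-like than in microglia-like cells of the vehicle control by 11.3 CPM, and lower by the same measure in niacin replicates 1 and 2 (-109 and -147 CPM). The difference drew attention because the vehicle library and both niacin libraries lay on opposite sides of 0, and it was not tested, as there was 1 vehicle library. The vehicle control levels were 622 CPM (1190 UMIs) and 610 CPM (1437 UMIs). That gap lies within counting error, so its sign is not settled. The monocyte/macrophage-like intervals in the niacin libraries run from 567 to 885 and from 587 to 807 CPM, beside microglia-like levels of 822 and 838 CPM.

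The shared-barcode copies that were left out of the niacin libraries held *Arg1*, with 77 UMIs in niacin replicate 1 and 41 in niacin replicate 2, while the cells kept in those libraries held 3 and 9. Of the copies in the monocyte/macrophage-like class, which held 62 and 37 of these UMIs, 91 of 95 and 75 of 80 carried a barcode that the vehicle control also held.

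*Kmo* stood at 588 CPM (467 to 729) in 18 vehicle control cells with mixed dendritic and monocyte/macrophage markers, which no class took. These cells held 82 of the 286 *Kmo* UMIs, more than the 230 monocyte/macrophage-like cells with 72. The matching cells of niacin replicates 1 and 2, 2 and 6 in number, had 3 and 5 UMIs.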

How the results depend on the processing

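The 3 libraries, 8 and 20 niacin monocyte/macrophage-like cells and 7 to 20 activated and 1 to 8 cycling cells per library limited every value. The vehicle-over-niacin log2 ratio of *Arg1* was 6.59 against the limit of 3 UMIs, and 5.02 to 6.00 against that limit without a niacin replicate. It became 2.02 with all shared barcodes kept and 2.53 against that limit with all left out. The limit covers counting error and not the spread between cells. With all left out, monocyte/macrophage-like against microglia-like calls fell from 3351 to 892 and other pathway calls from 9 to 2, with *Oaz1* at -0.56 and *Eif5a* at -0.020, and the *Il4i1* class difference turned to 0.20. The causes were not tested. Of 196 values of single genes under the alternatives, 159 kept their direction and their side of the threshold, 26 lost the threshold and 11 changed sign, and of 100 class differences of the 10 genes 8 moved by over 1 SD and 1 changed sign.

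For activated microglia-like cells, 716 calls became 359 with DESeq2 (231 higher and 128 lower, against 371 and 345), 329 with the split on 1000 UMIs, 94 with shared barcodes left out, 357 at 90% of lineage UMIs and 201 to 809 with a library left out (201 without the vehicle control, 370 without niacin replicate 2). The 2 other pathway calls became 0 with DESeq2, with shared barcodes left out and at 90%, 1 without the low-count filter, with the split on 1000 UMIs, with 1 UMI of the list and in the second draw, and 0 to 3 with a library left out. *Sat1* turned to -0.10 without the filter, -0.0082 with the split on 1000 UMIs, -0.60 with shared barcodes left out and -0.29 to 0.16 with a library left out.

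For cycling microglia-like cells, 156 calls became 326 without the filter, 24 with the split on 1000 UMIs, 10 with shared barcodes left out, 255 in the second draw and 31 to 268 with a library left out (31 without the vehicle control, 268 and 50 without niacin replicates 1 and 2). The 0 other pathway calls became 1 in the second draw, *Gatm*. *Sat1* turned to 0.031 with DESeq2, 0.080 at 90% of lineage UMIs and -1.06 to 0.72 with a library left out.

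Without the replicate block, calls went from 3351 to 3584, from 716 to 497 and, for cycling cells, from 156 to 505, other pathway calls of cycling cells from 0 to 2, and *Sat1* there to 0.54. Leaving out the vehicle control took the class differences of *Arg1* to -0.02 and of *Nos2* to -0.03. No paired analysis was possible because there was 1 vehicle library for the niacin and vehicle groups.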

Other observations

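The cells that no class took held part of the kynurenine genes. In the vehicle control they carried 144 of the 286 *Kmo* UMIs (50.3%), 38 of the 173 *Kynu* UMIs and 20 of the 177 *Il4i1* UMIs (11.3%). The 18 cells with mixed dendritic and monocyte/macrophage markers had *Kmo*, *Kynu* (122 CPM), *Ass1* (165 CPM) and *Il4i1* (50.2 CPM) together, with 0 UMIs of *Arg1*, *Nos2* and *Slc7a2*. The 56 vehicle control cells with mixed microglia and monocyte/macrophage markers had 24 *Arg1* UMIs (87.9 CPM), 23 *Slc7a2* UMIs (84.2 CPM) and 37 *Kmo* UMIs (135 CPM), all in 1 library and at a median of 1991.5 UMIs per cell.

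Cells with mixed monocyte/macrophage and nonclassical monocyte markers had *Sat1* at 1662, 1503 and 2404 CPM in the vehicle control and niacin replicates 1 and 2 (14, 14 and 10 cells), beside 1134, 1837 and 1823 CPM in the nonclassical monocyte-like class. *Gatm* was at 277, 8.69 and 30.8 CPM in monocyte/macrophage-like cells and at 214, 96.8 and 119 CPM in microglia-like cells, so it was higher in the vehicle control than in either niacin library in both classes. The niacin monocyte/macrophage-like values rest on 1 and 7 UMIs.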
